A study of Rattus norvegicus with 9 samples.

Results

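The semaphorin, plexin, neuropilin, Slit, Robo, netrin, Dcc, neogenin and Unc5 genes encode the secreted and membrane-bound cues that steer growing axons, and the receptors that read them. They were chosen by gene symbol, with earlier results of these data known, as array transcript clusters that carry 1 symbol of these families. Where a gene had several such clusters, the one with the highest mean stands for it. This gave 42 genes out of 18166 with a single-symbol cluster on the array, 26 of them ligands (semaphorins, Slits and netrins) and 16 receptors. Semaphorins of the membrane-bound classes are counted as ligands here, although some also act as receptors. The symbols Plxna1, Plxna4, Plxnb1, Plxnb2, Plxnc1 and Sema6a have no single-symbol cluster and were not analysed here.

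Retinal ganglion cells, whose axons form the optic nerve, came from Sprague Dawley rats of postnatal day 4. They were purified by immunopanning and electroporated with myr-Set-β (myr_Set), with wild-type Set-β (wt_Set) or with mCherry as the control, each with 3 arrays. The labels do not spell out myr, which in cell biology usually stands for a myristoylation signal that carries a protein to membranes. Set-β is a form of Set, a nuclear histone chaperone and inhibitor of protein phosphatase 2A. All 3 groups also received the pMAX-GFP plasmid. In every group the GFP-positive cells were sorted the next day and kept on laminin, and RNA was extracted 3 days after transfection. Sorting selected on GFP, which is not the tested construct, and the titles call the arrays biological replicates without saying whether these were separate litters or cultures. The p-values therefore rest on the variation among these arrays, and this may be technical.

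As background, semaphorins are mostly repellents. Secreted class 3 semaphorins usually bind a neuropilin, which has no signalling domain of its own, and plexins carry the signal into the cell, whereas membrane-bound semaphorins bind plexins directly. Slits repel axons through Robo receptors and keep retinal axons on course at the optic chiasm. Netrin-1 attracts ganglion cell axons into the optic nerve through Dcc and can repel axons through Unc5 receptors.

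Values are log2 of the deposited intensity, which has a median of 100 on each array, and in each sentence they run from replicate 1 to replicate 3. A difference is the first-named group minus the second on this log2 scale, with the standard error (SE) of a limma fit over all 9 arrays. Of the 42 genes, 27 had a mean of at least 6.65, the median of all cluster means, and were tested among 18343 clusters. The other 15 (Sema3a, Sema3b, Sema3d, Sema3g, Sema4c, Sema4f, Sema5a, Sema5b, Slit3, Ntn1, Plxnb3, Plxnd1, Robo3, Robo4 and Unc5b) lay below that level. Against the 75th percentile of 1128 odorant receptor clusters on the same array, a gauge of signal for genes little used in neurons of the retina, 16 of the 42 genes were higher on all 9 arrays, 21 on some and 5 on none. The signals of different clusters come from different probes, so this gauge and the level filter are rough. Apart from them, levels are compared only within a gene. A gene said to have the highest mean signal of its family was picked for display by that signal, not shown to be the most abundant.

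The arrays differed in ways that touch what follows. The log2 range between the 10th and the 90th percentile was 4.15 ± 0.321 in myr_Set, 4.16 ± 0.0473 in wt_Set and 4.45 ± 0.142 in mCherry (SD, n = 3 each). The myr_Set array of replicate 1 had the narrowest range, 3.82. The mean of 16 ganglion cell markers was 8.29, 8.81 and 9.15 in myr_Set, 9.06, 8.90 and 8.59 in wt_Set, and 9.70, 9.01 and 9.31 in mCherry, and all 16 had lower group means in both Set groups than in mCherry. With quantile normalization and cyclic loess, 2 other ways to scale the arrays, 16 and 12 were lower in myr_Set and 15 and 15 in wt_Set. In these bulk samples fewer cells of a type and less RNA per cell cannot be told apart. The 13 measured endothelial, mural and fibroblast markers averaged 6.53, 7.15 and 7.40 in myr_Set, 6.35, 7.14 and 7.30 in wt_Set, and 6.28, 7.28 and 7.56 in mCherry, so that the replicate 1 array of each group stood below the others. Means of the microglial and macrophage markers had the same order, with 6.83 to 6.87 on the replicate 1 arrays and 7.16 to 7.48 on the others. Single markers of both lists differed. In myr_Set, Pdgfrb had 7.25, 8.60 and 9.19 but Cdh5 had 6.99, 6.80 and 6.71. Likewise Cd68 had 7.10, 8.32 and 8.68 there but C1qa had 7.83, 7.76 and 7.34. Means of the photoreceptor and bipolar markers stayed between 6.19 and 6.43.

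No guidance gene passed the adjusted threshold of 0.05 in any comparison by limma with Benjamini-Hochberg adjustment, and 0% of the 18343 clusters did. At an unadjusted p under 0.05 the genes called were Sema3e and Nrp1 in myr_Set against mCherry, both lower, and Nrp1 and Sema3e (lower) and Ntn3 (higher) in wt_Set against mCherry. These are 2 and 3 of 27 genes, or 7.41% and 11.1%, beside 9.79% and 10.2% of all tested clusters, so the shares of guidance genes lay near those of the array. By direction, the array had 2.87% higher and 6.92% lower in myr_Set against mCherry, and 3.04% higher and 7.13% lower in wt_Set against mCherry. In myr_Set against wt_Set 0 of 27 genes were called, beside 1.13% of clusters.

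Most of the genes had a lower mean in the Set groups, and so had most of the array. In myr_Set against mCherry 19 of 27 differences were below 0 and their median was -0.18, beside 63.9% of clusters and a median of -0.16. In wt_Set against mCherry 21 of 27 were below 0 with a median of -0.21, beside 65.5% and -0.18. Relative to the array, the medians of the guidance genes were thus -0.02 and -0.03. With quantile normalization or cyclic loess the median of all clusters moved to -0.03 and -0.01 in myr_Set against mCherry and to -0.03 under both in wt_Set against mCherry. The clusters below 0 were then 53.0% and 51.4% in the myr_Set comparison and 53.5% and 53.1% in the wt_Set comparison, while 19 of the 27 guidance genes were below 0 in each. The medians of the guidance genes were -0.17 under both scalings in myr_Set against mCherry, and -0.11 and -0.15 in wt_Set against mCherry. Relative to the array they were then -0.13 and -0.15 in the myr_Set comparison and -0.08 and -0.12 in the wt_Set comparison, further below 0 than with the deposited scaling. With the deposited scaling, but relative to single-symbol clusters only, the median in myr_Set against mCherry was 0.08. The 2 comparisons share the mCherry arrays and are given side by side.

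**Figure D1:**
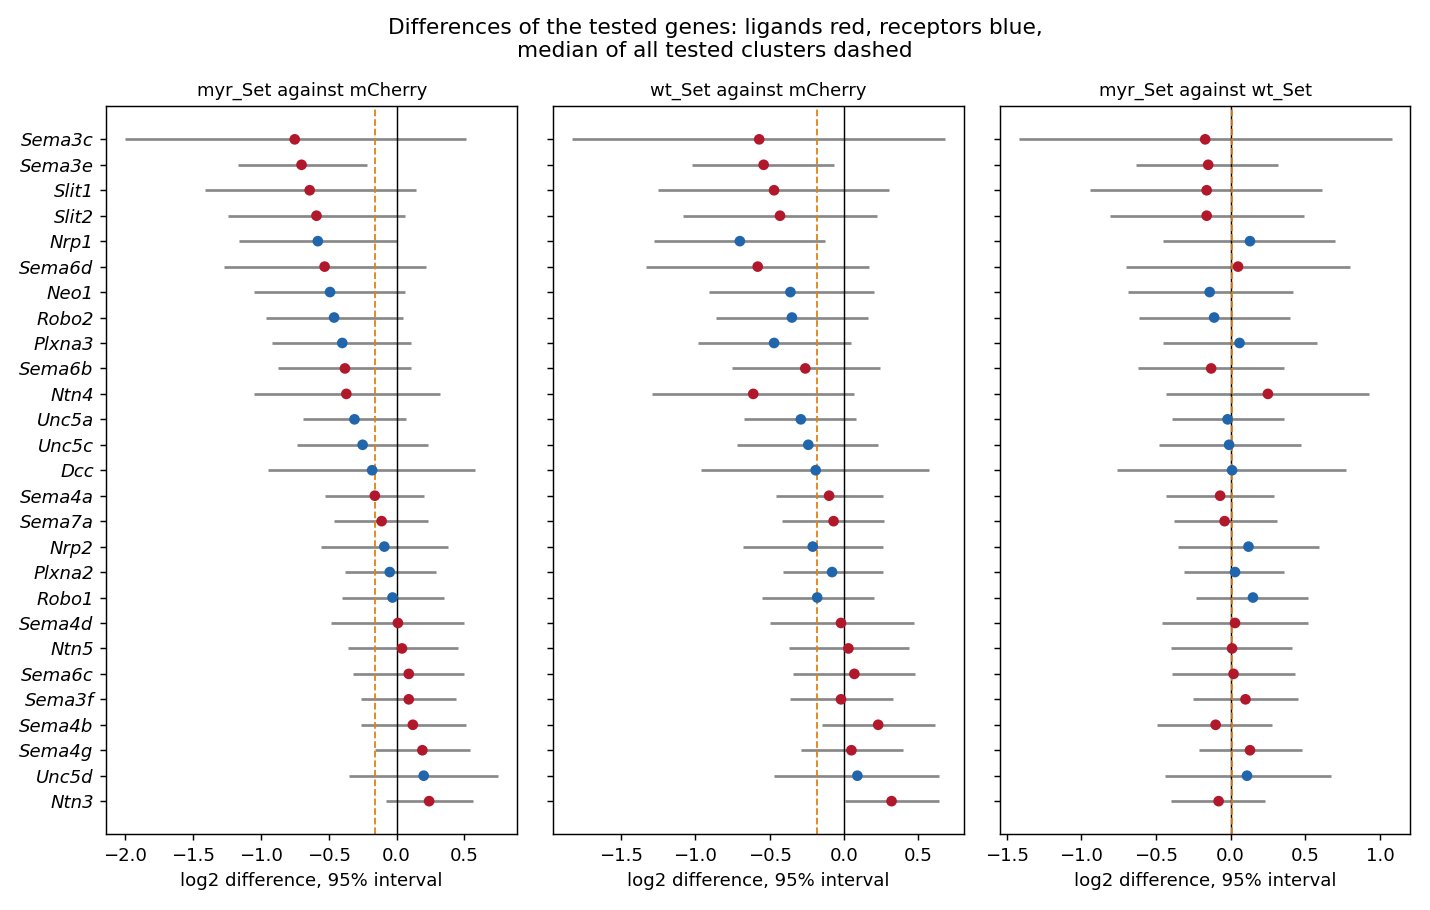
Log2 difference with its 95% confidence interval (horizontal axis) for each of the 27 tested genes (rows), for myr_Set against mCherry, wt_Set against mCherry and myr_Set against wt_Set. Ligands are red, receptors blue, and the dashed line is the median of all tested clusters. In the first comparison the intervals of Sema3e (-1.17 to -0.22) and Nrp1 lie below 0, and those of the other genes include 0.

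Groups whose 3 arrays did not overlap were counted as well. In myr_Set against mCherry this held for 5 of 27 genes (18.5%), with Sema3e, Slit2, Neo1 and Robo2 lower and Ntn3 higher, beside 11.4% of clusters (4.55% higher and 6.85% lower). In wt_Set against mCherry it held for 11 of 27 (40.7%), beside 33.7% of clusters (7.31% higher and 26.4% lower). The 9 lower genes there were Nrp1, Sema6d, Sema3c, Sema3e, Plxna3, Slit2, Neo1, Robo2 and Unc5a, and the 2 higher ones were Sema4b and Ntn3. These counts depend on the scaling. With quantile normalization and cyclic loess, 8 and 8 of 27 genes did not overlap in wt_Set against mCherry, beside 25.4% and 25.7% of clusters. The clusters were then 11.7% and 12.1% lower and 13.7% and 13.5% higher. These counts under the other scalings were chosen after seeing the data. In myr_Set against wt_Set only Robo1, higher in myr_Set, had arrays that did not overlap (3.7%), beside 4.39% of clusters.

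**Figure D2:**
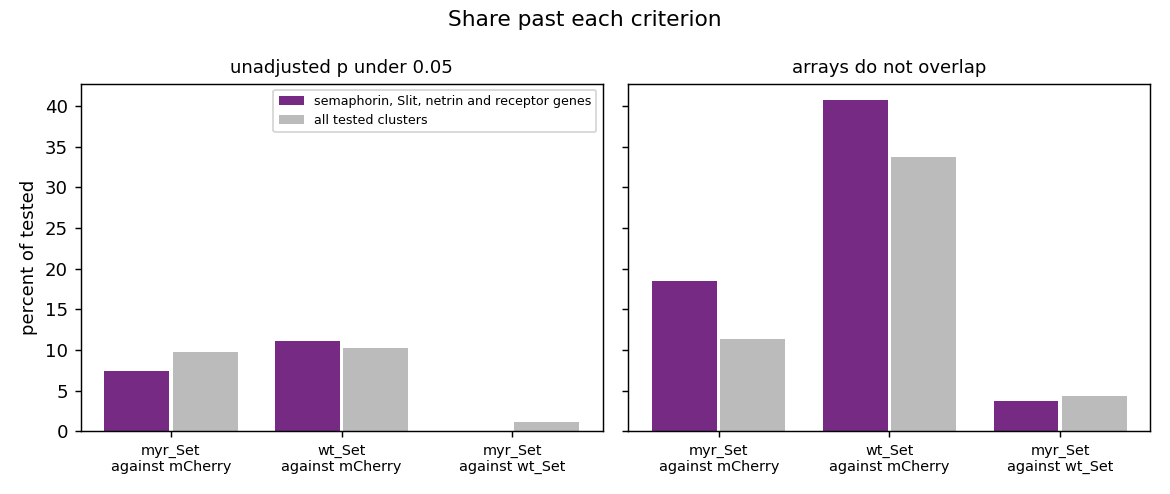
Percent of features (vertical axis) called at an unadjusted p under 0.05 and percent whose arrays do not overlap, for the 27 guidance genes (purple) and for all 18343 tested clusters (grey), in each comparison. In wt_Set against mCherry, 40.7% of the guidance genes and 33.7% of all clusters did not overlap with the deposited scaling.

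The promoters of the 3 genes called at an unadjusted p under 0.05 are shown so that a reader can see the sequence beside the values. Each is the 250 bases before the RefSeq start on assembly GRCr8, 5′ to 3′ along the gene's strand. Nrp1 lies at chr19:73256307-73256556 (plus strand), Ntn3 at chr10:13744556-13744805 (minus strand) and Sema3e at chr4:21510375-21510624 (minus strand). Capitals mark, on either strand, the GC box GGGCGG, the CACCC box CACCC, the TATA box TATAAA and the CCAAT box CCAAT, and no matches overlapped.
Nrp1: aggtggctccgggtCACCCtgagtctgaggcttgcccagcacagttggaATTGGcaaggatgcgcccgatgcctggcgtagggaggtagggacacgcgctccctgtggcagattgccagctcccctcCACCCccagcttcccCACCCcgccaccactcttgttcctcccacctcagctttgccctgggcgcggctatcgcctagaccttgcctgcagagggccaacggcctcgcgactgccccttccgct
Ntn3: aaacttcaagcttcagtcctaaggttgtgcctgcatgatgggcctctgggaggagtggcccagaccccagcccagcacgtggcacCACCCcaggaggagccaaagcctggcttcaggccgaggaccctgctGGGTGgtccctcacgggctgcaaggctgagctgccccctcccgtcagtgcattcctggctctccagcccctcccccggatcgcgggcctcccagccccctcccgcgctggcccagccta
Sema3e: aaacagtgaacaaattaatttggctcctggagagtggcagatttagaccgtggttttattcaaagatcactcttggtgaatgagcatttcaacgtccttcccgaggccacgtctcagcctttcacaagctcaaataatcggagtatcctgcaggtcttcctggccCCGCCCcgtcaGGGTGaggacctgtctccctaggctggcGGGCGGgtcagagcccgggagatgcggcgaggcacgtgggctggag
The Nrp1 window holds 3 CACCC boxes and 1 CCAAT box, the Ntn3 window 2 CACCC boxes, and the Sema3e window 2 GC boxes and 1 CACCC box. Of 33469 RefSeq windows of the same length, 30.5% hold a GC box, 49.2% a CACCC box, 12.9% a TATA box and 34.0% a CCAAT box. A match describes letters and is no evidence of a bound factor.

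Sema3e had the smallest p among the guidance genes in myr_Set against mCherry. It encodes a secreted semaphorin that, unlike the rest of its class, binds plexin-D1 without a neuropilin. Its values were 6.47, 7.10 and 6.85 in myr_Set, 7.14, 6.94 and 6.80 in wt_Set, and 7.74, 7.40 and 7.38 in mCherry. Every Set array was below every mCherry array. The difference from mCherry was -0.70 ± 0.21 in myr_Set, a fold of 0.616 (unadjusted p = 0.00907, adjusted p = 0.447), and -0.54 ± 0.21 in wt_Set, a fold of 0.686 (unadjusted p = 0.0295, adjusted p = 0.447). Under quantile normalization and cyclic loess it was -0.62 and -0.66 in myr_Set and -0.44 and -0.48 in wt_Set. When each array was left out in turn, the unadjusted p in myr_Set stayed under 0.05 in 9 of 9 fits (0.00576 to 0.0341). In wt_Set it did so in 6 of 9, the exceptions being those without the mCherry array of replicate 1 (0.0965) or the wt_Set arrays of replicate 2 (0.0708) or replicate 3 (0.0965). Plxnd1, the gene of its plexin, was below the level tested, with group means of 6.09 ± 0.21, 6.16 ± 0.21 and 6.18 ± 0.08 in myr_Set, wt_Set and mCherry.

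Sema3c, a secreted semaphorin that binds neuropilins, had the highest mean signal of its class. It measured 6.89, 8.60 and 9.44 in myr_Set, 8.06, 8.70 and 8.69 in wt_Set, and 8.85, 8.98 and 9.34 in mCherry. The replicate 1 array was the lowest of each of the 3 groups, a pattern found in 7.33% of tested clusters and in no other tested guidance gene. The difference was -0.75 ± 0.55 in myr_Set (adjusted p = 0.487) and -0.57 ± 0.55 in wt_Set (adjusted p = 0.563). Without the myr_Set array of replicate 1 the first became -0.03, and without that of replicate 3 it became -1.31. Without the wt_Set array of replicate 1 the second became -0.36. Quantile normalization and cyclic loess gave -0.55 and -0.37 in myr_Set and -0.23 and -0.24 in wt_Set. Tagln, an actin-binding protein of smooth muscle and fibroblasts, moved with these arrays at 6.70, 12.01 and 12.59 in myr_Set, 7.34, 11.89 and 11.89 in wt_Set, and 7.93, 12.40 and 12.62 in mCherry. Cdh5, of the same marker list, did not, at 6.99, 6.80 and 6.71 in myr_Set, 6.80, 6.70 and 6.68 in wt_Set, and 6.66, 6.53 and 6.62 in mCherry. The part of such markers in the Sema3c values was not tested.

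The third tested gene of the class, Sema3f, a ligand of neuropilin-2, averaged 7.13 ± 0.14 in myr_Set, 7.03 ± 0.14 in wt_Set and 7.04 ± 0.03 in mCherry. Its differences of 0.09 ± 0.15 and -0.02 ± 0.15 were within their errors. Sema3a, a repellent read by neuropilin-1, lay below the tested level at 6.26, 6.37 and 6.52 in myr_Set, 6.82, 6.15 and 5.66 in wt_Set, and 7.37, 6.38 and 6.42 in mCherry. One mCherry array was high and the groups overlapped. Sema3b and Sema3d were at or below the 75th percentile of odorant receptor clusters on every array, and above the median of those clusters on 9 and 1 arrays.

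The membrane-bound semaphorins held no gene called at an unadjusted p under 0.05. Sema6d, a class 6 semaphorin that binds plexin-A1, measured 6.50, 7.54 and 7.91 in myr_Set, 7.08, 7.39 and 7.32 in wt_Set, and 8.04, 7.63 and 7.85 in mCherry. All 3 wt_Set arrays were below the mCherry arrays, whereas the highest myr_Set array was within the mCherry range. Its differences were -0.53 ± 0.33 in myr_Set (adjusted p = 0.453) and -0.58 ± 0.33 in wt_Set (adjusted p = 0.448). Sema6b averaged 6.57 ± 0.29 in myr_Set, 6.70 ± 0.24 in wt_Set and 6.95 ± 0.23 in mCherry, a difference of -0.38 ± 0.22 in myr_Set and -0.26 ± 0.22 in wt_Set. Sema6c, of highest mean signal among classes 4 to 7, had 8.13, 8.35 and 7.83 in myr_Set, 8.10, 8.03 and 8.13 in wt_Set, and 8.18, 8.01 and 7.84 in mCherry. The groups overlapped, and the Sema6c differences were 0.09 ± 0.18 and 0.07 ± 0.18. They were larger with quantile normalization and cyclic loess, at 0.35 and 0.37 in myr_Set and 0.33 and 0.34 in wt_Set, where no adjusted p was under 0.05.

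Among class 4 semaphorins Sema4b had 7.45, 7.36 and 7.01 in myr_Set, 7.42, 7.44 and 7.28 in wt_Set, and 7.09, 7.09 and 7.26 in mCherry. All wt_Set arrays were above the mCherry arrays by a small margin, with a difference of 0.23 ± 0.17 (adjusted p = 0.488), and the myr_Set difference was 0.12 ± 0.17, or 0.24 and 0.21 with quantile normalization and cyclic loess. Sema4g measured 7.41, 7.15 and 7.29 in myr_Set, 7.14, 7.15 and 7.16 in wt_Set, and 7.20, 7.17 and 6.93 in mCherry. The groups overlapped, with differences of 0.19 ± 0.15 and 0.05 ± 0.15 from mCherry. Sema4a differed by -0.16 ± 0.16 and -0.10 ± 0.16, and Sema4d, the ligand of plexin-B1, by 0.01 ± 0.22 and -0.02 ± 0.22. A second Sema4d cluster below the tested level had group means of 6.07 ± 0.22 in myr_Set, 6.18 ± 0.12 in wt_Set and 6.38 ± 0.06 in mCherry. Sema7a, a lipid-anchored semaphorin that promotes axon growth through integrins, differed by -0.11 ± 0.15 in myr_Set and -0.07 ± 0.15 in wt_Set.

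Both tested Slits had lower means in the Set groups. Slit2, a main repellent of retinal axons, had 7.17, 8.16 and 8.31 in myr_Set, 8.16, 8.12 and 7.85 in wt_Set, and 8.37, 8.57 and 8.48 in mCherry. Every Set array was below the mCherry arrays, and the myr_Set array of replicate 1 was far below the rest. The difference was -0.59 ± 0.28 in myr_Set (unadjusted p = 0.0685, adjusted p = 0.447) and -0.43 ± 0.28 in wt_Set (adjusted p = 0.465). Without that myr_Set array the first became -0.24. Quantile normalization and cyclic loess gave -0.39 and -0.30 in myr_Set and -0.14 and -0.15 in wt_Set. Slit1, a repellent of the same family, had 6.80, 6.09 and 6.99 in myr_Set, 7.14, 6.86 and 6.38 in wt_Set, and 7.85, 6.82 and 7.11 in mCherry. Its groups overlapped, with differences of -0.64 ± 0.34 and -0.47 ± 0.34.

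Ntn3 was the guidance gene with a higher value in wt_Set than in mCherry at an unadjusted p under 0.05, and it did not pass in myr_Set. It encodes a secreted netrin. Its values were 6.91, 6.85 and 7.00 in myr_Set, 6.93, 6.98 and 7.09 in wt_Set, and 6.65, 6.67 and 6.71 in mCherry. The mCherry arrays were tightly grouped, and every Set array was above them. The difference was 0.24 ± 0.14 in myr_Set, a fold of 1.18 (unadjusted p = 0.122, adjusted p = 0.447), and 0.32 ± 0.14 in wt_Set, a fold of 1.25 (unadjusted p = 0.0469, adjusted p = 0.447). It was 0.25 and 0.24 in myr_Set, and 0.35 and 0.35 in wt_Set, with quantile normalization and cyclic loess. Its mCherry values lay where the level filter begins, at 6.65. The 75th percentile of odorant receptor clusters also differed between the arrays. It was 6.88, 6.63 and 6.27 in myr_Set, 6.66, 6.54 and 6.57 in wt_Set, and 6.19, 6.51 and 6.41 in mCherry. For this gauge too every wt_Set array was above the mCherry arrays, whereas the myr_Set arrays overlapped them. The part of such a shift in the Ntn3 values was not tested. The wt_Set call held in 2 of 9 fits that left out 1 array, with unadjusted p-values of 0.0447 to 0.138.

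The groups overlapped for the other tested netrins. Ntn4, a netrin of basement membranes, had 6.79, 6.62 and 7.17 in myr_Set, 6.26, 6.95 and 6.61 in wt_Set, and 6.72, 7.17 and 7.78 in mCherry. It had differences of -0.37 ± 0.30 in myr_Set and -0.61 ± 0.30 in wt_Set (unadjusted p = 0.0721 and adjusted p = 0.447 in the second). Ntn5, the netrin of highest mean signal, had 7.10, 6.97 and 6.71 in myr_Set, 7.01, 6.83 and 6.91 in wt_Set, and 6.79, 7.13 and 6.73 in mCherry. Its differences of 0.04 ± 0.18 and 0.03 ± 0.18 were smaller than their errors. Ntn1, the classical attractant, averaged 5.81 ± 0.12 in myr_Set, 5.72 ± 0.05 in wt_Set and 5.93 ± 0.15 in mCherry. It was below the 75th percentile of odorant receptor clusters on every array and above their median on 6.

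**Figure D3:**
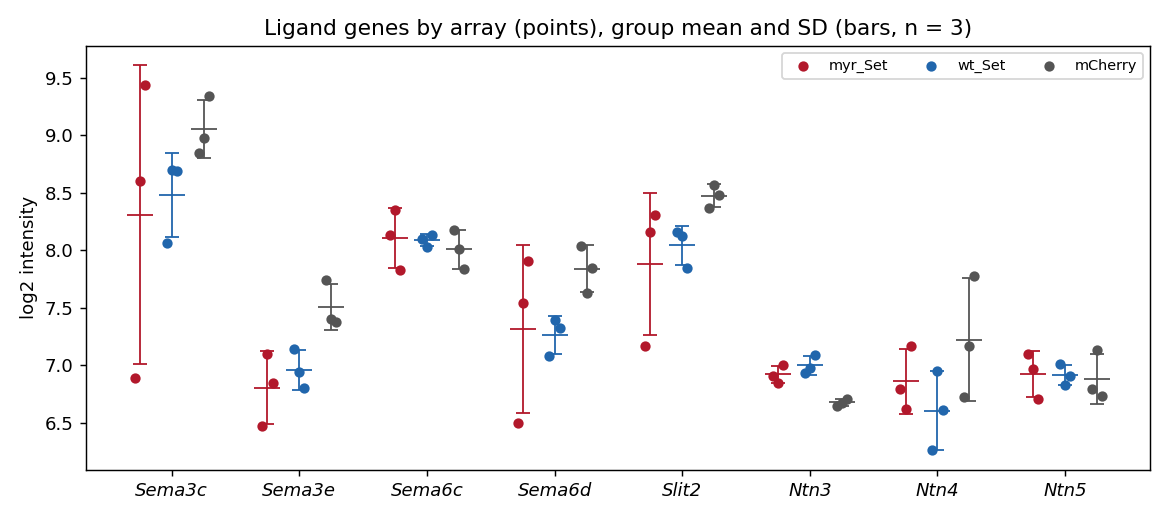
Log2 intensity (vertical axis) of ligand genes by array (points) with the group mean and SD (bars, n = 3), for myr_Set, wt_Set and mCherry. All Set arrays of Sema3e (6.47 to 7.14) lie below the mCherry arrays (7.38 to 7.74), those of Ntn3 lie above, and Sema3c has a single low myr_Set array at 6.89.

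Receptors had lower means in the Set groups for 10 of 11 tested genes in each comparison, beside 63.9% and 65.5% of all clusters. Among the 10, Plxna2 turned positive in both comparisons under quantile normalization and cyclic loess. Their median difference relative to all clusters was -0.09 in myr_Set against mCherry and -0.06 in wt_Set against mCherry, and that of the 16 tested ligands was 0.02 and 0.10. No test of the difference between receptors and ligands was made.

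Nrp1, the neuropilin-1 coreceptor for Sema3a, had 7.41, 7.96 and 8.10 in myr_Set, 7.95, 7.64 and 7.51 in wt_Set, and 8.74, 8.03 and 8.45 in mCherry. All wt_Set arrays were below the mCherry arrays, and 1 myr_Set array lay within the mCherry range. The difference was -0.58 ± 0.25 in myr_Set, a fold of 0.67 (unadjusted p = 0.05, just under the threshold before rounding, adjusted p = 0.447), and -0.70 ± 0.25 in wt_Set, a fold of 0.614 (unadjusted p = 0.0225, adjusted p = 0.447). Without the myr_Set array of replicate 1 the first became -0.37 (unadjusted p = 0.164). Of 9 fits that left out 1 array, the unadjusted p was under 0.05 in 2 for myr_Set and in 5 for wt_Set, and without the mCherry array of replicate 1 it was 0.165 and 0.0818. Quantile normalization and cyclic loess gave -0.34 and -0.32 in myr_Set and -0.43 and -0.45 in wt_Set. Nrp2, the neuropilin-2 coreceptor for Sema3f, averaged 7.03 ± 0.29 in myr_Set, 6.91 ± 0.06 in wt_Set and 7.13 ± 0.28 in mCherry, and its differences of -0.09 ± 0.21 and -0.21 ± 0.21 did not exceed their errors.

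Of the plexins, which relay semaphorin signals, only Plxna2 and Plxna3 were at the tested level. Plxna3 had 6.80, 6.94 and 7.05 in myr_Set, 6.90, 6.91 and 6.79 in wt_Set, and 7.86, 7.10 and 7.05 in mCherry. A single high mCherry array set its mean apart. The difference was -0.40 ± 0.23 in myr_Set and -0.47 ± 0.23 in wt_Set (unadjusted p = 0.0697, adjusted p = 0.447), and without the mCherry array of replicate 1 the second became -0.21. Plxna2, at 7.41, 7.42 and 7.51 in myr_Set, 7.44, 7.42 and 7.40 in wt_Set, and 7.58, 7.32 and 7.59 in mCherry, differed by -0.05 ± 0.15 and -0.08 ± 0.15, and both values turned positive under quantile normalization (0.10 and 0.07) and cyclic loess (0.08 and 0.07). Plxnb3, below the tested level, had 6.47, 6.30 and 6.45 in myr_Set, 6.30, 6.37 and 6.44 in wt_Set, and 6.46, 6.34 and 6.11 in mCherry, and its groups overlapped.

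Robo2, the main Slit receptor of ganglion cell axons, had 8.01, 8.26 and 8.25 in myr_Set, 8.32, 8.28 and 8.24 in wt_Set, and 9.13, 8.33 and 8.44 in mCherry. No Set array reached the mCherry range, although the gap to the lowest mCherry array was small and the array of replicate 1 stood high. The difference was -0.46 ± 0.22 in myr_Set (unadjusted p = 0.0714, adjusted p = 0.447) and -0.35 ± 0.22 in wt_Set (adjusted p = 0.458). Without the mCherry array of replicate 1 these became -0.21 and -0.10. With quantile normalization and cyclic loess they were -0.17 and -0.12 in myr_Set, and -0.03 and -0.04 in wt_Set. Robo1, the other tested Slit receptor, had 6.74, 6.74 and 6.90 in myr_Set, 6.47, 6.72 and 6.73 in wt_Set, and 6.63, 7.00 and 6.83 in mCherry. Its differences from mCherry were -0.03 ± 0.17 and -0.18 ± 0.17. Robo3, the receptor of commissural neurons, and Robo4, a receptor of endothelial cells, were below the 75th percentile of odorant receptor clusters on all 9 arrays. They were above the median of those clusters on 6 and 9 arrays.

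Among netrin receptors, neogenin (Neo1), which also binds repulsive guidance molecules, had 7.11, 7.92 and 8.06 in myr_Set, 7.90, 7.86 and 7.75 in wt_Set, and 8.30, 8.10 and 8.18 in mCherry. Every Set array was below the mCherry arrays, and the myr_Set array of replicate 1 was the lowest of the 9. The difference was -0.49 ± 0.24 in myr_Set (unadjusted p = 0.0755, adjusted p = 0.447), or -0.20 without that array, and -0.36 ± 0.24 in wt_Set (adjusted p = 0.470). Under quantile normalization and cyclic loess it was -0.31 and -0.25 in myr_Set, and -0.10 and -0.12 in wt_Set. Dcc, the receptor for attraction by netrin-1, had 6.90, 6.90 and 6.90 in myr_Set, 7.10, 6.90 and 6.67 in wt_Set, and 7.95, 6.79 and 6.50 in mCherry. Its groups overlapped, the mCherry arrays alone spanned the values of both Set groups, and the differences were -0.18 ± 0.34 and -0.19 ± 0.34. Before rounding, the replicate 1 array was the highest of each group for Dcc, as for 3.38% of tested clusters, but the myr_Set arrays tie at the digits printed.

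The Unc5 receptors mediate repulsion by netrin. Unc5a had 7.07, 7.08 and 7.32 in myr_Set, 7.20, 7.18 and 7.15 in wt_Set, and 7.66, 7.24 and 7.50 in mCherry. The wt_Set arrays were all below the mCherry arrays, and the myr_Set arrays overlapped them. Its differences were -0.31 ± 0.17 in myr_Set and -0.29 ± 0.17 in wt_Set (adjusted p = 0.447 in both), and with quantile normalization and cyclic loess -0.20 and -0.23 in myr_Set and -0.17 and -0.19 in wt_Set. Unc5c differed by -0.25 ± 0.21 and -0.24 ± 0.21. Unc5d was the receptor with higher means in the Set groups, with 7.71, 7.29 and 7.09 in myr_Set, 7.28, 7.29 and 7.17 in wt_Set, and 7.45, 7.35 and 6.69 in mCherry. Its differences were 0.20 ± 0.24 and 0.09 ± 0.24, and its groups overlapped.

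**Figure D4:**
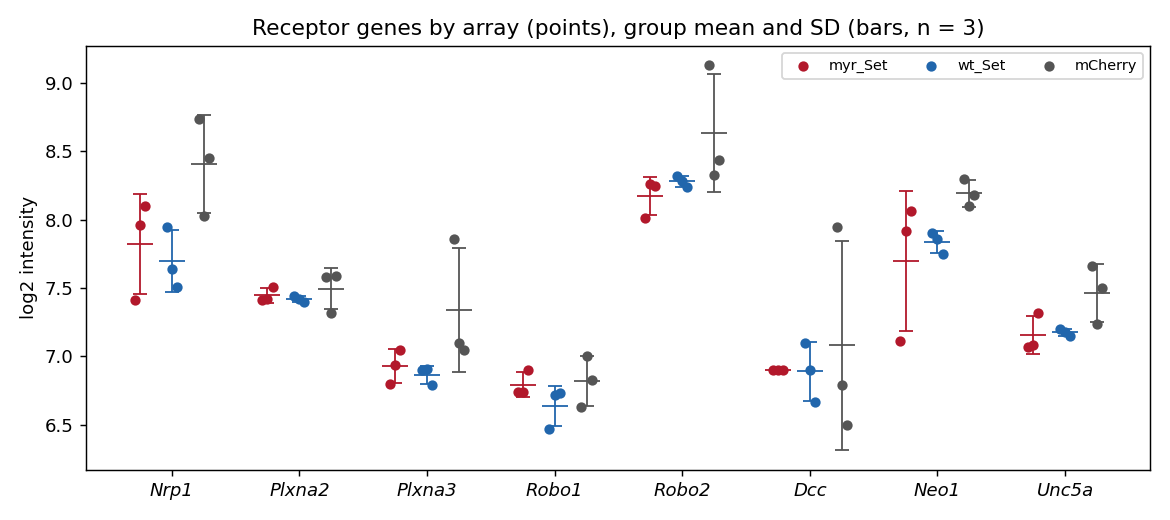
Log2 intensity (vertical axis) of receptor genes by array (points) with the group mean and SD (bars, n = 3), for myr_Set, wt_Set and mCherry. The wt_Set arrays of Nrp1 (7.51 to 7.95) lie below the mCherry arrays (8.03 to 8.74), and the mCherry array of replicate 1 stands above all other arrays for Robo2 (9.13), Dcc (7.95) and Plxna3 (7.86).

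Levels of Robo2 and Nrp1 are set beside the ganglion cell markers, and those of Sema3c and Ntn4 beside the endothelial, mural and fibroblast markers, in the plot of levels on each array. The mCherry array of replicate 1 was the highest of the 9 for Robo2, for Nrp1 and for the mean of the ganglion cell markers (9.70), and the myr_Set array of replicate 1 was the lowest for all 3 (8.29 for the markers). The part of the markers in the Robo2 and Nrp1 values was not tested.

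**Figure D5:**
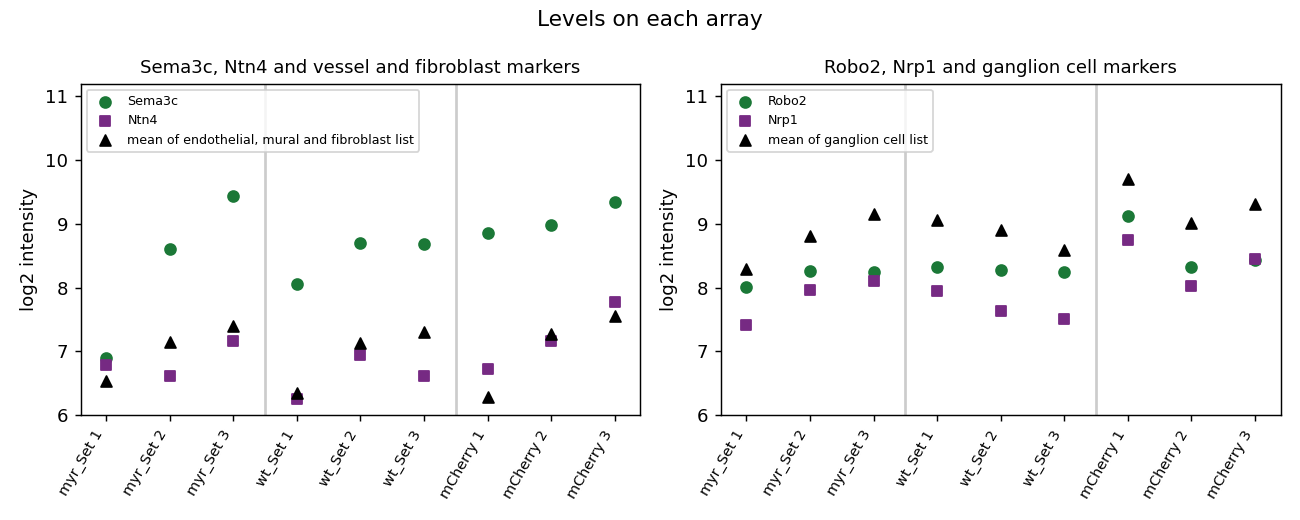
Log2 intensity (vertical axis) on each of the 9 arrays (horizontal axis, myr_Set, wt_Set and mCherry), with 1 symbol per array. The left panel shows Sema3c, Ntn4 and the mean of the endothelial, mural and fibroblast list, and the right panel Robo2, Nrp1 and the mean of the ganglion cell list. Sema3c and the list at its side are lowest on the replicate 1 array of each group.

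Between the Set forms no guidance gene reached an unadjusted p under 0.05, and all adjusted p-values were 1. The 27 differences split into 14 above and 13 below 0, with a median of 0.01 beside 0.01 for all clusters. The genes of smallest p were Robo1 (0.15 ± 0.17), Sema4g (0.13 ± 0.15), Ntn4 (0.25 ± 0.30) and Sema3e (-0.15 ± 0.21). Their 95% confidence intervals were -0.23 to 0.52 for Robo1, -0.21 to 0.48 for Sema4g, -0.43 to 0.93 for Ntn4 and -0.63 to 0.32 for Sema3e. For Nrp1 the interval was -0.45 to 0.70 and for Sema3c it was -1.42 to 1.08, so these arrays do not show that the forms act alike.

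Partners of the pathway were described from a pair of lists of other genes. Of 31 coreceptors and partners, 24 had a cluster and 21 were tested. In myr_Set against mCherry 1 was lower and 0 higher at an unadjusted p under 0.05 (4.76%, beside 9.79% of clusters), with a median of -0.38 beside -0.16 for all clusters. In wt_Set against mCherry 0 were called, beside 10.2% of clusters, with a median of -0.43 beside -0.18. Clusters with a mean at or above the 75th percentile of cluster means had a median of -0.36 in both comparisons. With quantile normalization and cyclic loess the medians of the list became -0.18 and -0.20 in myr_Set and -0.20 and -0.23 in wt_Set. In each, 0 were lower and 1 higher at an unadjusted p under 0.05. The 1 called with the deposited scaling was Ptprs, a receptor phosphatase for proteoglycans, at 8.38 ± 0.23 in myr_Set, 8.45 ± 0.04 in wt_Set and 8.83 ± 0.22 in mCherry, a difference of -0.45 ± 0.18 in myr_Set (unadjusted p = 0.0347, adjusted p = 0.447). L1cam, an adhesion molecule that takes part in Sema3a signalling, averaged 8.98 ± 0.61 in myr_Set, 9.08 ± 0.19 in wt_Set and 9.76 ± 0.57 in mCherry.

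Of 60 cytoplasmic effectors, 54 had a cluster and 48 were tested. At an unadjusted p under 0.05, 5 were lower in myr_Set than in mCherry (10.4%) and 4 in wt_Set (8.33%), none was higher, and none passed the adjusted threshold. Of all clusters, 9.79% and 10.2% were called in the same comparisons, 6.92% and 7.13% as lower. By this criterion the shares of effectors lay near those of the array. With the deposited scaling, the arrays did not overlap for 5 of 48 effectors in myr_Set against mCherry (10.4%), beside 11.4% of clusters. In wt_Set against mCherry they did not for 30 of 48 (62.5%), all lower, beside 33.7% of clusters (26.4% lower). Differences below 0 were found for 46 and 47 of the 48, beside 63.9% and 65.5% of all clusters. The effector medians were -0.50 and -0.55, beside -0.16 and -0.18 for all clusters. Clusters with a mean at or above the 75th percentile of cluster means had a median of -0.36 in both. Quantile normalization and cyclic loess brought the effector medians to -0.25 and -0.18 in myr_Set and to -0.25 and -0.23 in wt_Set. In myr_Set 44 and 43 of the 48 effectors were then below 0, beside 53.0% and 51.4% of clusters. In wt_Set 44 and 44 were, beside 53.5% and 53.1%. Dpysl3, of the collapsin response mediator family that acts downstream of semaphorins, had the smallest p of this list in both comparisons. It averaged 9.08 ± 0.52 in myr_Set, 9.19 ± 0.18 in wt_Set and 9.99 ± 0.30 in mCherry, with differences of -0.91 ± 0.28 (unadjusted p = 0.0101) and -0.80 ± 0.28 (unadjusted p = 0.0189), both with an adjusted p of 0.447. Nck1, an adaptor between Dcc or Robo and the actin cytoskeleton, averaged 6.66 ± 0.08 in wt_Set and 7.26 ± 0.43 in mCherry, a difference of -0.60 ± 0.23 (unadjusted p = 0.0263). The 16 ganglion cell markers had medians of -0.55 and -0.53 in the same comparisons. Under quantile normalization and cyclic loess the marker medians were -0.35 and -0.27 in myr_Set and -0.20 and -0.20 in wt_Set. The part of the markers in the effector values was not tested.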

How the data were processed

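RNA of 9 samples was amplified and hybridised to Affymetrix Rat Gene arrays, per the labels and the design text. Affymetrix Expression Console and RMA are named in the submitters' processing notes. Per the design text the authors also set every sample to its median, and they deposited linear intensity for 36685 transcript clusters. Precision is limited by the number of arrays, which have no depth.

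The platform annotation gave 1 symbol for 18511 clusters, several for 575 and none for 17599. For the array's genome build, no source used here gives a name. RefSeq (GRCr8) gave the promoters, with a window for 32 of the 42 genes. Intensities were log2-transformed and fitted as group means with limma 3.58.1 in R 4.3.3 (6 residual and 2.82 prior degrees of freedom), two-sided, with Benjamini-Hochberg adjustment over 18343 clusters. The fit was tested on simulated data.

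The members and lists were chosen with earlier results of these data known. Array values are given for the gene of highest mean in each family and the 4 of smallest p per comparison. Other genes with array values were picked after their values were seen. From the partner lists, genes of high mean or smallest p were named. Alternatives varied scaling, level filter, arrays fitted, weights, variance shrinkage and replicate block.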

Additional observations from a re-analysis of the deposited data

How the results depend on the processing

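The count of guidance genes at an unadjusted p under 0.05 in myr_Set against mCherry was 2 of 27, beside 9.79% of clusters. It was 1 with quantile normalization (clusters 8.40%), 1 with cyclic loess (9.19%), 1 with only the groups compared (4.86%), 1 with trend and robust shrinkage (9.11%), 1 with the replicate block (9.56%), 0 with a level filter at the 75th percentile of cluster means (9.18%) and 4 with gene-by-gene array weights (20.7%). In wt_Set against mCherry it was 3, beside 10.2% of clusters, and became 1 with quantile normalization (7.46%), 1 with the stricter filter (9.65%), 2 with the replicate block (10.6%), 7 with only the groups compared (23.2%) and 5 with gene-by-gene weights (25.6%), so that the higher counts came where more of the array was called. The counts with the stricter filter are not out of 27, as it begins at a mean of 7.57. It left out Sema3e (mean 7.09) and Ntn3 (6.86), among others. Leaving out 1 array gave 1 to 6 in the first comparison, with 6 without the myr_Set array of replicate 3 (clusters 33.5%) and 5 without the mCherry array of replicate 2 (14.9%). It gave 0 to 6 in the second, with 0 without the wt_Set array of replicate 3 (4.98%) and 6 without the myr_Set array of replicate 1 (21.1%). The planned array weights put nearly all weight on 1 array (165 on myr_Set replicate 2) and did not converge. They gave 10, 8 and 4 of 27 genes in the 3 comparisons, beside 47.0%, 34.2% and 24.6% of clusters, with 5, 0 and 1 at an adjusted p under 0.05, beside 5903, 0 and 1270 of 18343 clusters. Nrp1 (-0.43, adjusted p = 0.0409), Sema6c (0.41, adjusted p = 0.0215) and Unc5a (-0.38, adjusted p = 0.0184) were among those called in myr_Set against mCherry. Gene-by-gene weights were chosen after seeing the data. The median relative to all clusters in myr_Set against mCherry was -0.15 with cyclic loess and -0.17 with the stricter filter, which left fewer genes tested. It was 0.08 with single-symbol clusters only, whose own median was -0.26. In wt_Set against mCherry the alternatives other than leaving out 1 array gave -0.12 to 0.08. Quantile normalization gave 3 of 27 genes whose arrays did not overlap in myr_Set against mCherry, beside 12% of clusters, and cyclic loess gave 0 in myr_Set against wt_Set, beside 4.81%, both counts chosen after seeing the data.

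Signs turned for genes with differences near 0. Plxna2 became 0.10 and 0.08 in myr_Set and 0.07 and 0.07 in wt_Set with quantile normalization and cyclic loess. Leaving out 1 array, Ntn5 ranged from -0.04 to 0.17 in myr_Set and from -0.04 to 0.16 in wt_Set, and Sema6c from -0.03 to 0.23 and from -0.01 to 0.16. In myr_Set against wt_Set, Sema3e ranged from -0.30 to 0.02. The array weights there gave 0.15 for Sema3e, -0.09 for Ntn4 and 0.00 for Sema4g, and the gene-by-gene weights 0.07 for Sema3e. The second cluster of Sema4d gave -0.32 in myr_Set against mCherry, where the first gave 0.01, and that of Unc5b -0.09 in wt_Set against mCherry, where the first gave 0.27. The cause was not tested.

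Over all clusters, 1796, 1865 and 208 were at an unadjusted p under 0.05 in the 3 comparisons. Across the alternatives these counts ran from 642 to 8627, from 880 to 6279 and from 52 to 4514. Same-numbered arrays of different groups had correlations of their deviations from the group means of -0.069 to 0.383, and arrays of different numbers -0.398 to 0.365. The myr_Set and mCherry arrays of replicate 1 were the only same-numbered pair with a negative correlation, while pairs of different numbers held both signs. Not every same-numbered pair was above 0.1, so the numbers were not taken to pair the samples. However, the replicate 1 arrays share low levels of Tagln and Vim. The replicate block gave 1754, 1937 and 251 clusters.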
